A study of Mus musculus with 16 samples.

Results

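The response of control chondrocytes to TNFα was examined by comparing the 4 RNA-Seq libraries of wild-type cells treated with TNFα with the 4 libraries of wild-type cells treated with vehicle, which are 8 of the 16 libraries of the study. The members of the comparison were taken by the genotype and treatment that the sample labels give, although earlier results of these data were known. A repeat with 6 libraries, described below, left out replicate 4 of each treatment for its measured values. The cells were chondrocyte-enriched cultures from epiphyses of 3- to 4-day-old wild-type mice in a C57BL/6 background, littermates of mice heterozygous for the *Notch2*tm1.1Ecan allele, and both sexes were pooled. The cells were exposed to PBS as vehicle or to TNFα at 50 ng/ml, and RNA was obtained at 6 h in both groups. The other 8 libraries are those of the heterozygous *Notch2*tm1.1Ecan littermates under the same treatments and are used for a side by side comparison at the end. The labels call the 4 libraries of a group biological replicates but do not say whether they came from separate animals or cultures, so that p values measure the spread between these libraries. The labels also give the removal of serum for the TNFα groups alone, whereas the study's legend gives it for both treatments, so that TNFα and serum removal cannot be told apart should the labels be right.

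TNFα is a cytokine of the inflamed joint. It binds TNF receptors on the chondrocyte, and adaptor proteins then activate the IκB kinase complex, which releases NF-κB dimers from their inhibitors and lets them enter the nucleus. NF-κB induces chemokines, adhesion molecules and its own inhibitors, and the induction of interferon regulatory factors and type I interferon adds a further layer of interferon-stimulated genes. In cartilage TNFα is known to induce matrix-degrading enzymes and nitric oxide synthesis and to lower the expression of aggrecan and type II collagen.

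Promoter sequences are shown because they carry the motifs that the NF-κB and interferon pathways are known to use, for 3 genes of different roles whose promoters hold a match: *Cxcl10*, a chemokine, *Gbp5*, a guanylate-binding protein, and *Nfkbia*, the NF-κB inhibitor IκBα. They run from 250 bases before to 50 bases after the start of the gene in RefSeq on GRCm38.p6, namely chr5:92348840-92349139 on the minus strand, chr3:142496684-142496983 on the plus strand and chr12:55492598-55492897 on the minus strand. Capitals mark matches on either strand to the patterns searched. The NF-κB (κB) consensus was searched as GGGRNNYYCC, where R is A or G, Y is C or T and N is any base. The interferon response motif was searched as GAAA followed by any 2 bases and GAAA again.
Cxcl10: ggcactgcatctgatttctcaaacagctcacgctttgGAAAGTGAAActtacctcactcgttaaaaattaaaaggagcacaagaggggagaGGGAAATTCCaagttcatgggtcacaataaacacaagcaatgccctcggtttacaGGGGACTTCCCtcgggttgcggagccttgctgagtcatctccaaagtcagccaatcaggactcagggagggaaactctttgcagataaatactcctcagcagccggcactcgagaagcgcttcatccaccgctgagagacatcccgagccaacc
Gbp5: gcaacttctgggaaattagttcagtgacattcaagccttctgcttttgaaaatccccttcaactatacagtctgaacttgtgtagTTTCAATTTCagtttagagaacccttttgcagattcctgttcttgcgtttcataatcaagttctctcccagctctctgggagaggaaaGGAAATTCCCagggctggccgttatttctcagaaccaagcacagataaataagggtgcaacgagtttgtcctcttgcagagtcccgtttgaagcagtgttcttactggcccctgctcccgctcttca
Nfkbia: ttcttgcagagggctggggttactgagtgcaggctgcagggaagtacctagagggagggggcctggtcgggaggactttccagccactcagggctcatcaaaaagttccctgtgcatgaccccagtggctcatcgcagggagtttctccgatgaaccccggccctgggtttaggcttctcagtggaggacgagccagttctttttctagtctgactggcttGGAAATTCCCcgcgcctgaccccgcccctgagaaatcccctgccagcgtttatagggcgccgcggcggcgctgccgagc
The *Cxcl10* promoter holds a κB match that begins 159 bases before the start and a pair of overlapping κB matches at 104 and 103 bases, besides an interferon response match at 213 bases. The *Gbp5* promoter holds a κB match at 77 bases and an interferon response match at 165 bases before the start, and that of *Nfkbia* a κB match at 29 bases. The promoter of *Icam1* holds no match to either pattern in this window. It does hold the run TGGAAATTCC, which departs from the κB pattern in its first base alone, so that a strict search misses it. The promoters of *Tap1*, *Psmb9*, *Cxcl9* and *Birc3* held no match either, whereas those of *Gbp2*, *Irf1*, *Tnfaip3*, *Cxcl1* and *Nfkb2* held a κB match. *Nos2* and *Sox9* were not matched to a promoter. A match is a run of letters and not a measured binding site.

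Each of the 8 control libraries held between 12552727 and 19220459 counts on genes. Values are given below as CPM, the count of a gene scaled to a fixed total of counts on genes, for vehicle replicates 1, 2, 3 and 4 and then for TNFα replicates 1, 2, 3 and 4. The cells expressed the chondrocyte genes that their label implies, with *Col2a1* between 34472 and 38082 CPM and *Acan* between 1539 and 1693 CPM in vehicle, and the fibroblast gene *Col1a1* was present as well at 12898 to 14230 CPM. In such bulk samples fewer cells of a type and less RNA per cell cannot be told apart. Replicate 4 of each treatment lay between the treatments. Differences between vehicle replicate 4 and the other vehicle libraries gave a chi-square per degree of freedom of 10.1 to 14.8, compared to 2.14 to 3.95 among vehicle replicates 1 to 3. Among the TNFα libraries replicate 4 differed from replicates 2 and 3 by 14.4 and 16 but from replicate 1 by 8.1, and replicate 1 differed from replicates 2 and 3 by 9.45 and 10.6, so that replicate 1 stood apart from replicates 2 and 3 as well, which differed by 3.14. The biological coefficient of variation was 9.98% with all 8 libraries and 5.49% without both replicates 4. Results are given with the 8 libraries, and main counts, list medians that moved and some genes also with the 6 libraries that remain. Since replicates 4 were left out because their values lay between the treatments, p values and calls from 6 libraries are too favorable, and fold changes from 6 libraries are given as descriptions.

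TNFα altered the expression of a large share of the genes of control chondrocytes. Of 19338 genes tested, 4505 (23.3%) rose and 4037 (20.9%) fell at an adjusted p under 0.05 (edgeR, quasi-likelihood test, Benjamini-Hochberg adjustment), and the words rose and fell below refer to this test. With a change of at least 2-fold as a further requirement, which is called the threshold below, 1638 genes (8.47%) were higher and 641 (3.31%) were lower with TNFα. In the 6 libraries 1754 of 18523 genes (9.47%) were higher and 755 (4.08%) were lower past the threshold. A total of 2075 genes were past the threshold in the same direction in both analyses, which is 91.0% of the calls with 8 libraries and 82.7% of those with 6. The ranges of the treatments did not overlap in 8041 genes (41.6%), and the median log2 fold change of all genes was 0.04.

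*Icam1*, an adhesion molecule that binds leukocyte integrins, measured 33.3, 38.5, 40.1 and 427 CPM with vehicle and 2618, 2827, 2924 and 2302 CPM with TNFα. Every TNFα library exceeded every vehicle library, and vehicle replicate 4 was far above the other vehicle libraries. The log2 fold change was 4.23 ± 1.09 (SE, n = 4 per group, adjusted p = 0.0205 by edgeR) with 8 libraries and 6.16 with 6. *Cxcl10*, a chemokine for T cells that interferons induce, measured 0.857, 0.371, 0.83 and 225 CPM with vehicle and 1465, 1677, 1750 and 1319 CPM with TNFα. *Nos2*, the inducible nitric oxide synthase, had no count in vehicle replicates 1 to 3, 63.5 CPM in vehicle replicate 4 and 362, 411, 414 and 352 CPM with TNFα. *Gbp5*, an interferon-induced GTPase that promotes inflammasome assembly, measured 0, 0, 0.0638 and 50.5 CPM with vehicle and 295, 337, 333 and 265 CPM with TNFα. In all 3 genes vehicle replicates 1 to 3 were at or near 0 and replicate 4 was raised, and no vehicle library reached a TNFα library.

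**Figure D1:**
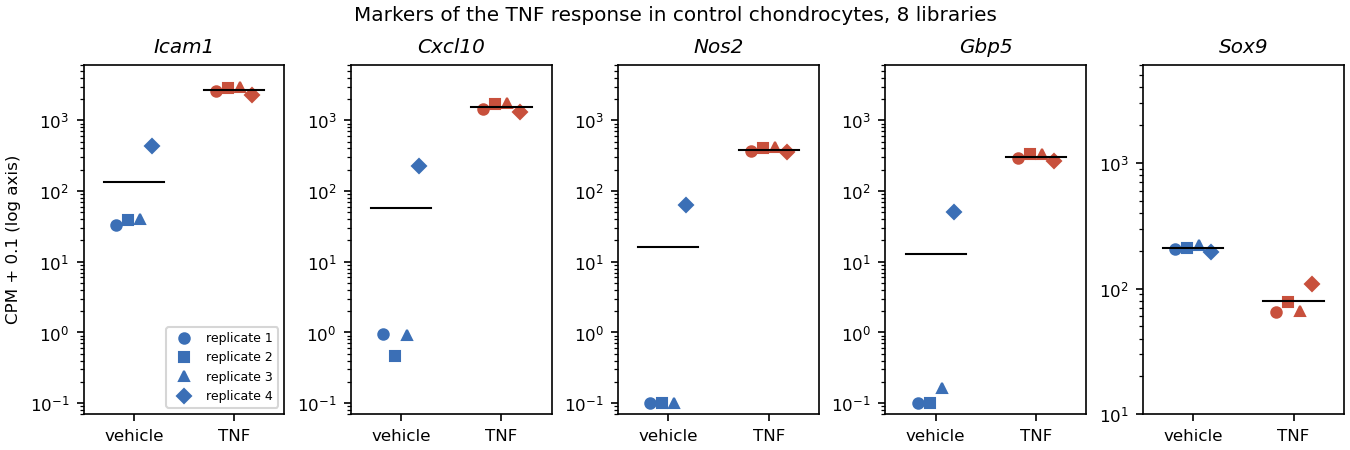
CPM of 5 markers of the response (log axis, 0.1 CPM added so that 0 can be drawn, axis of *Sox9* on its own range) in each of the 8 control libraries, with the shape of the point giving the replicate and the black line the mean of 4 libraries. Vehicle replicate 4 sits far above the other vehicle libraries for *Icam1* (427 CPM), *Cxcl10* (225 CPM), *Nos2* (63.5 CPM) and *Gbp5* (50.5 CPM), and for *Sox9* TNFα replicate 4 is the highest TNFα library (109 CPM).

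Whether the genes are called depends on these values and on the fit. With 8 libraries edgeR gave adjusted p = 0.112 for *Cxcl10*, 0.0713 for *Nos2* and 0.0563 for *Gbp5*, with log2 fold changes of 4.68 ± 2.00, 4.49 ± 1.65 and 4.49 ± 1.53 (SE). All 3 passed the threshold when vehicle replicate 4 alone was left out, a library picked here for its values, and none passed it when any other single library was. With all 8 control libraries kept, edgeR fitted to all 16 libraries also called the 3 genes (adjusted p = 0.0132, 0.00435 and 0.00267). So did edgeR with 1 surrogate variable, which was estimated from the same 8 libraries (adjusted p = 0.000474, 0.00104 and 0.000769). None of the 3 was called by edgeR with a replicate block (adjusted p = 0.0925, 0.104 and 0.101) or with RLE normalization (0.11, 0.0697 and 0.0548). The same held with no filter beyond 1 count (0.152, 0.0997 and 0.0793). With filterByExpr *Gbp5* alone was called (0.0484), and DESeq2 called *Cxcl10* alone (0.0167). In the 6 libraries the log2 fold change of *Cxcl10* was 11.08, and TNFα replicates 1 to 3 had *Nos2* at least 2065-fold above the limit of 3 counts per vehicle library. *Ccl5*, another T cell chemokine, followed the same course with 0.321, 0.148, 0.128 and 161 CPM in vehicle and 1239, 1292, 1371 and 991 CPM with TNFα (adjusted p = 0.103 with 8 libraries). An exact permutation test of log2(CPM + 1) gave p = 0.0286 (two-sided, unadjusted) for each of *Icam1*, *Cxcl10*, *Nos2*, *Gbp5*, *Ccl5* and *Sox9*, which is the smallest p that 4 against 4 libraries allow. Any gene whose groups do not overlap gets this p, and 41.6% of all genes did not overlap. These genes were named with their values known, so the test adds no support for them.

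The position of replicate 4 between the treatments was then measured gene by gene. Among 825 genes higher and 421 genes lower past the threshold in the 6 libraries, all with at least 5 CPM in the higher group, a position of 0% was set at the mean of vehicle replicates 1 to 3 and 100% at the mean of TNFα replicates 1 to 3. These genes were chosen for their difference in those 6 libraries, and the replicates 4 entered the choice only through the group mean that had to reach 5 CPM. Because the replicates 4 had been set apart for lying between the treatments, their positions are given as a description. Vehicle replicate 4 lay at a median of 13.8% for the higher genes (quartiles 10.1 and 18.0%) and 18.1% for the lower genes (9.20 and 26.2%). TNFα replicate 4 lay at 77.3% (71.3 and 83.5%) and at 79.2% (73.7 and 84.4%). Vehicle replicate 4 was between the treatments in 792 of the 825 higher genes and TNFα replicate 4 in 803. Of the 421 lower genes vehicle replicate 4 was between them in 370 and on the far side of the vehicle mean in 51, and TNFα replicate 4 was between them in 413. For 16 of the higher genes that had no count at all in vehicle replicates 1 to 3, vehicle replicate 4 lay between 9.27 and 31.7% (median 13.0%). The cause of the position of these 2 libraries was not tested.

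**Figure D2:**
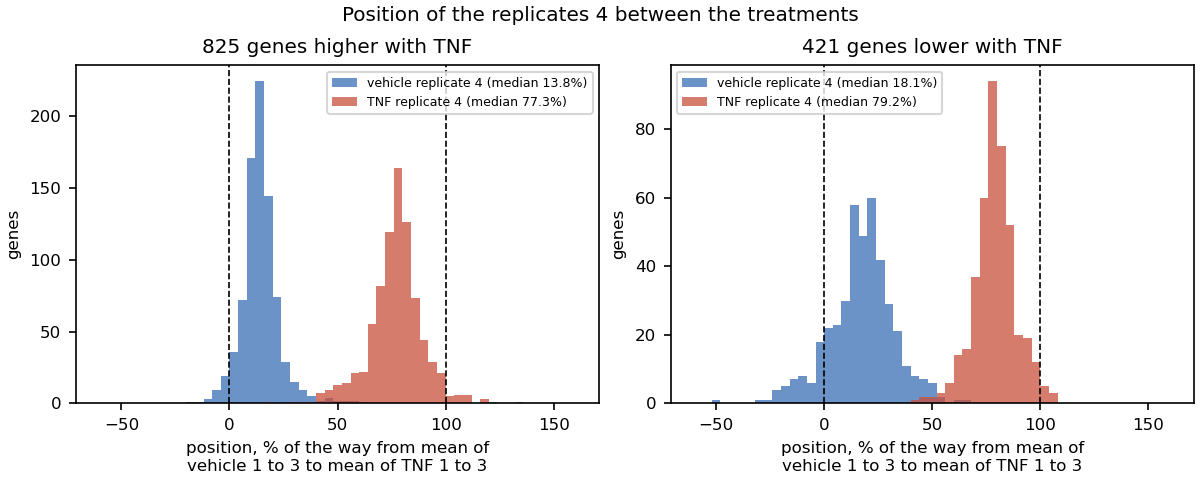
Number of genes (vertical axis) by the position of vehicle replicate 4 (blue) and TNFα replicate 4 (red) on the way from the mean of vehicle replicates 1 to 3 (0%, dashed line) to the mean of TNFα replicates 1 to 3 (100%, dashed line), for 825 genes higher (left) and 421 genes lower (right) with TNFα in those 6 libraries. Vehicle replicate 4 gathers around 13.8 and 18.1% and TNFα replicate 4 around 77.3 and 79.2%.

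The genes were then examined by their roles, from the receptor to the effectors. Among 18 TNF receptors and proximal adaptors 11 rose and 3 fell, 3 of the 18 by at least 2-fold (all higher), with a median log2 fold change of 0.25. *Tnfrsf1a*, the main TNF receptor, measured 207, 206, 218 and 187 CPM with vehicle and 172, 178, 182 and 182 CPM with TNFα (log2 fold change -0.25, adjusted p = 0.000229), whereas *Tnfrsf1b*, the inducible receptor, rose by 0.46. *Birc2*, a ubiquitin ligase of the receptor complex, measured 17.2, 20.5, 19.5 and 24.4 CPM with vehicle and 59.0, 65.4, 63.1 and 49.6 CPM with TNFα, a log2 fold change of 1.48. The adaptor *Traf2* (1.16) and *Rnf31* (1.36), which encodes a subunit of the linear ubiquitin ligase, were also past the threshold, although *Rnf31* overlaps *Irf9* and *Psme2* on the genome and its reads are less certain. *Ripk1* (0.11, adjusted p = 0.0998) and *Map3k7* (0.06, adjusted p = 0.35), kinases that relay the signal, did not pass the test.

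Of 17 NF-κB subunits and inhibitors 16 rose and none fell, 14 by at least 2-fold, with a median log2 fold change of 2.44 with 8 and 2.78 with 6 libraries. *Nfkbia* measured 19.3, 16.5, 22.1 and 65.5 CPM with vehicle and 315, 358, 368 and 301 CPM with TNFα (log2 fold change 3.37 ± 0.51, adjusted p = 0.00194). *Tnfaip3*, the deubiquitinase A20 that ends NF-κB signaling, measured 3.43, 3.64, 4.4 and 20.5 CPM with vehicle and 117, 125, 125 and 99.2 CPM with TNFα (3.77 ± 0.58, adjusted p = 0.00214). The groups of both inhibitors were far apart, with vehicle replicate 4 as the highest vehicle library. *Nfkbie*, which encodes the inhibitor IκBε, had a log2 fold change of 4.05 and *Traf1*, an adaptor induced by NF-κB, one of 4.05. *Tnip3*, a partner of A20, was at 0 in vehicle replicates 1 to 3, at 0.405 CPM in vehicle replicate 4 and at 5.18, 4.04, 5.61 and 2.34 CPM with TNFα. Among the subunits *Relb* rose from 16.1, 13.8, 14.2 and 32.8 CPM to 177, 187, 202 and 155 CPM (3.16) and *Nfkb2* by 2.44, *Rela* rose by 1.23 and *Nfkb1* by 0.92, and *Rel* did not pass it (-0.10, adjusted p = 0.532).

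Of 20 chemokines 15 rose and 2 fell, and 16 were past the threshold, 15 of them higher. The median log2 fold change was 3.90, or 3.37 with genes near 0 counts set at their bound, and with 6 libraries it was 5.63, or 4.39 at the bound. The neutrophil chemokine *Cxcl1* measured 1.98, 0.817, 1.6 and 16.5 CPM with vehicle and 74.7, 96.5, 103 and 77.9 CPM with TNFα (3.95 ± 0.74, adjusted p = 0.00511). The monocyte chemokine *Ccl2* measured 14.0, 15.7, 15.9 and 196 CPM with vehicle and 1331, 1415, 1528 and 1095 CPM with TNFα (4.39 ± 1.13, adjusted p = 0.0204). *Ccl20*, which attracts dendritic and Th17 cells, measured 0.0535, 0.0742, 0.128 and 3.24 CPM with vehicle and 20.9, 24.3, 24.4 and 22.5 CPM with TNFα (4.58 ± 0.70). In each of these the TNFα libraries were close to each other and vehicle replicate 4 was the highest vehicle library. *Cxcl9*, a T cell chemokine, had adjusted p = 0.0494 (4.56), and when any single library other than vehicle replicate 4 was left out its adjusted p was 0.0788 to 0.0982. *Cxcl14*, a constitutively expressed chemokine, fell from 27.0, 26.1, 29.1 and 19.6 CPM to 10.4, 10.0, 8.8 and 12.3 CPM (-1.34), and *Cxcl12*, the stromal chemokine, by 0.20 on the log2 scale.

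Of 18 cytokines tested 13 rose and 2 fell, 12 of them higher by at least 2-fold, with a median log2 fold change of 2.1 (1.28 with genes near 0 at their bound). *Tnf* itself measured 0.0535, 0, 0.0638 and 0.579 CPM with vehicle and 3.58, 4.73, 3.86 and 4.32 CPM with TNFα (4.38 ± 0.45, adjusted p = 6.89e-07). *Il15*, a growth factor of NK and T cells, measured 0.642, 0.223, 1.02 and 1.1 CPM with vehicle and 11.6, 14.0, 16.2 and 9.47 CPM with TNFα (3.99). *Il6*, the cytokine on which the study centers, measured 0.161, 0.148, 0.255 and 0.695 CPM with vehicle and 0.398, 1.04, 0.723 and 0.989 CPM with TNFα (1.25 ± 0.49, adjusted p = 0.0445). The groups overlapped for *Il6*, since vehicle replicate 4 exceeded TNFα replicate 1, and its adjusted p ranged from 0.00376 to 0.143 as single libraries were left out, above 0.05 without vehicle replicate 1, 2 or 3 or TNFα replicate 2, 3 or 4. DESeq2 gave *Il6* an adjusted p of 0.0725 with 8 libraries, and the log2 fold change with 6 was 1.86. *Il1b* was at the limit of detection, with 0, 0, 0 and 0.0579 CPM in vehicle and 0, 0.115, 0.603 and 0.208 CPM with TNFα (adjusted p = 0.0269 by edgeR). The call of *Il1b* was lost without vehicle replicate 1, 2 or 3 (adjusted p = 0.0754, 0.0635 and 0.0639), and over all alternatives that gave a value its adjusted p ranged from 0.012 to 0.38. *Tnfsf11*, which encodes the osteoclast differentiation factor RANKL, rose from 1.39, 1.71, 1.09 and 1.16 CPM to 6.45, 6.58, 5.61 and 4.58 CPM (2.06), and *Tnfrsf11b*, which encodes its decoy receptor osteoprotegerin, fell from 450, 467, 474 and 427 CPM to 236, 250, 239 and 275 CPM (-0.92, adjusted p = 3.81e-11).

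Among 11 genes of leukocyte adhesion and costimulation all 11 rose, 10 by at least 2-fold. The median log2 fold change was 4.17 with 8 libraries and 5.52 with 6, or 4.64 with genes near 0 at their bound. *Vcam1*, the ligand of the integrin VLA-4, measured 30.3, 26.5, 32.0 and 144 CPM with vehicle and 741, 791, 795 and 628 CPM with TNFα (3.59 ± 0.68, adjusted p = 0.00555). The costimulatory ligand *Icosl* measured 0.589, 1.86, 1.02 and 29.8 CPM with vehicle and 165, 201, 195 and 166 CPM with TNFα (4.34), and the receptor *Tnfrsf9* (4-1BB) 0.161, 0, 0.0638 and 0.579 CPM and 5.18, 7.56, 8.56 and 6.3 CPM (4.90). The groups did not overlap in any of the 11 genes, beside 41.6% of all genes with no overlap. The checkpoint ligand *Cd274* rose by 3.83 and *Cd40* by 4.40.

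Interferon-stimulated genes rose together. All 18 interferon-stimulated genes rose past the threshold, with a median log2 fold change of 3.84 with 8 libraries, and in the 6 libraries the median of the 17 tested was 6.32. *Ifnb1*, interferon β itself, was at 0, 0, 0 and 0.0579 CPM with vehicle and at 0.159, 0.115, 0.181 and 0.364 CPM with TNFα (adjusted p = 0.0209), which is near the limit of detection. *Ifit3*, an interferon-induced antiviral protein, measured 5.94, 4.9, 6.26 and 87.9 CPM with vehicle and 480, 539, 545 and 411 CPM with TNFα (4.14 ± 1.13, adjusted p = 0.025). *Mx1*, an antiviral GTPase, had no count in vehicle replicates 1 to 3 and 4.81 CPM in replicate 4, and measured 40.8, 60.9, 53.9 and 35.3 CPM with TNFα. In all 18 genes the groups did not overlap, beside 41.6% of all genes. Over the 17 genes for which a position was computed vehicle replicate 4 lay at a median of 18.1% of the way to TNFα.

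Of 16 guanylate-binding proteins (GBP) and immunity-related GTPases (IRG), which interferons induce against intracellular pathogens, 15 rose past the threshold and *Gbp5* had the adjusted p of 0.0563 given above. In the 6 libraries all 15 genes tested were past the threshold, *Gbp5* among them, and the median log2 fold change was 7.57, or 6.04 with genes near 0 at their bound, compared to 4.24 with 8. *Gbp2* measured 3.69, 4.97, 5.36 and 137 CPM with vehicle and 826, 862, 899 and 698 CPM with TNFα (4.35 ± 1.40, adjusted p = 0.0461). *Irgm1* measured 15.0, 14.9, 14.5 and 60.4 CPM with vehicle and 211, 231, 224 and 180 CPM with TNFα (2.93 ± 0.56, adjusted p = 0.00581). *Gbp4*, *Gbp8* and *Gbp9* overlap on the genome and the GBP genes are alike in sequence, so that their reads may be shared. Among 17 interferon regulatory and STAT factors tested 12 rose and 2 fell, 9 of them higher and 1 lower by at least 2-fold. *Irf1*, a direct target of NF-κB, measured 17.5, 14.7, 18.4 and 58.3 CPM with vehicle and 275, 299, 309 and 234 CPM with TNFα (3.28 ± 0.51, adjusted p = 0.00222). *Irf7*, which amplifies interferon production and overlaps *Phrf1* on the opposite strand, rose by 3.73 and *Stat2*, which transmits interferon signals, by 2.76. *Socs3*, an inhibitor of cytokine signaling, fell from 33.6, 32.0, 37.9 and 29.7 CPM to 10.3, 11.9, 13.9 and 16 CPM (-1.40), and *Socs1* rose by 1.25.

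All 16 genes of antigen processing and the MHC class I pathway rose past the threshold, with a median log2 fold change of 2.98 with 8 libraries and 3.52 with 6. The class I heavy chain *H2-K1* measured 98.6, 97.5, 98.9 and 196 CPM with vehicle and 777, 842, 871 and 702 CPM with TNFα (2.63 ± 0.29, adjusted p = 0.000398), although class I genes are alike in sequence. The transporter *Tap1* measured 17.9, 20, 18.9 and 51.6 CPM with vehicle and 230, 265, 271 and 209 CPM with TNFα (3.10), and the subunit *Psmb8* of the immunoproteasome 1.5, 1.41, 1.53 and 23.4 CPM and 127, 156, 157 and 118 CPM (4.21). *B2m*, which encodes the light chain of class I, had the smallest log2 fold change of the list, 1.41. The groups did not overlap in any of the 16 genes, beside 41.6% of all genes with no overlap.

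**Figure D3:**
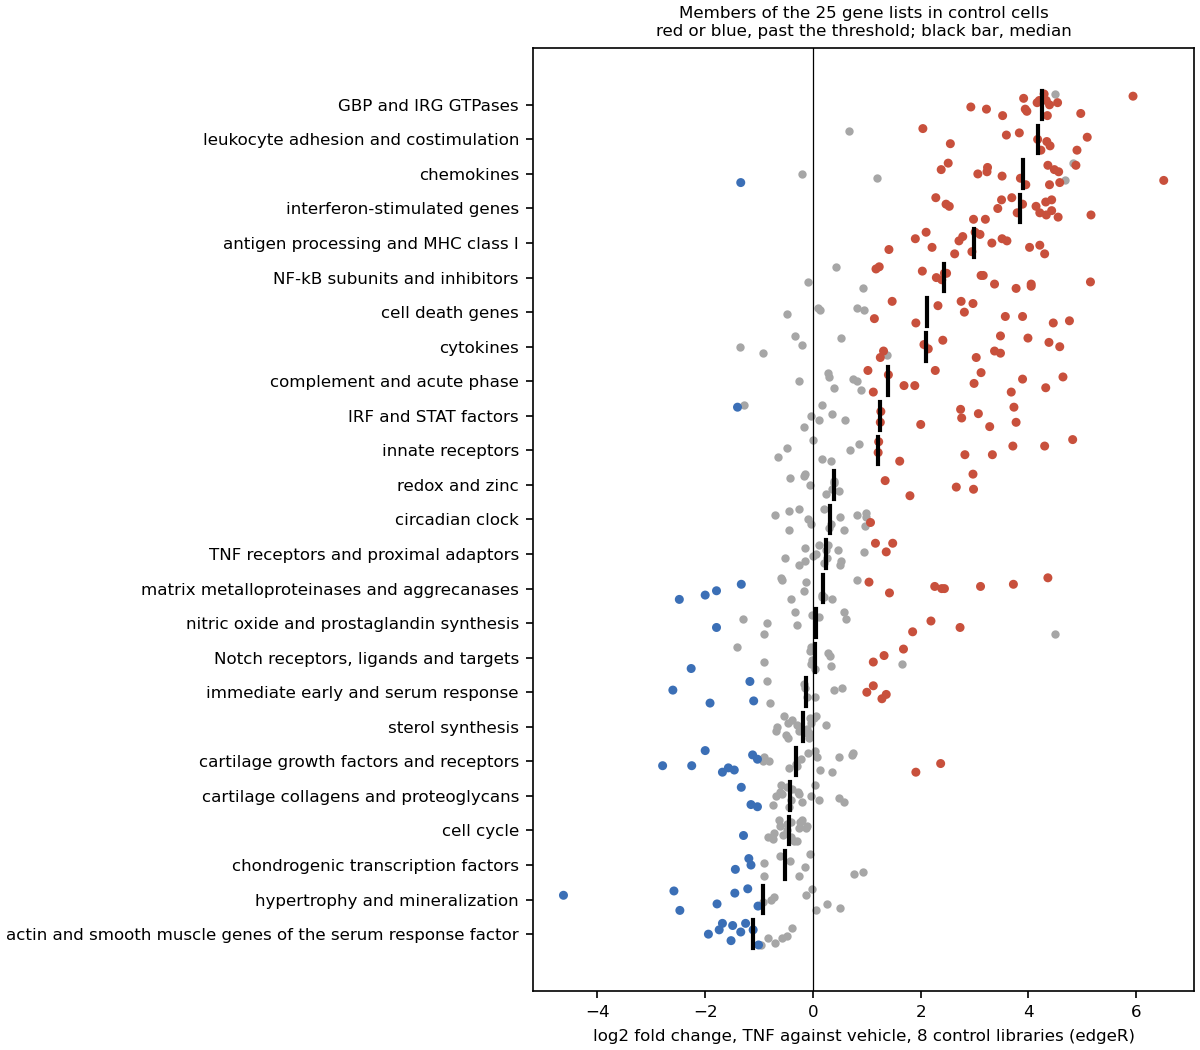
Log2 fold change with TNFα against vehicle (horizontal axis, edgeR, 8 control libraries) of each member of 25 gene lists, ordered by the median of the list (black bar). Red points are higher and blue points lower past the threshold, and gray points are not past it, with medians from 4.24 for the GBP and IRG genes to -1.11 for the actin and smooth muscle genes.

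Effectors of inflammation changed in part. Of 19 complement and acute phase genes 16 rose and 12 passed the threshold, with a median log2 fold change of 1.40 (1.12 with genes near 0 at their bound). The central complement component *C3* measured 22.0, 26.3, 24.6 and 198 CPM with vehicle and 1088, 1088, 1064 and 993 CPM with TNFα (3.89 ± 0.92, adjusted p = 0.0141). *Lcn2*, which encodes the iron-scavenging lipocalin, rose from 28.0, 27.4, 27.2 and 37.3 CPM to 113, 121, 123 and 107 CPM (1.89). In both the TNFα libraries stood together above all vehicle libraries.

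Of 14 genes of nitric oxide and prostaglandin synthesis tested, 4 rose and 5 fell, and 3 were higher and 1 lower past the threshold, whereas *Nos2* was not past it with 8 libraries. Of all genes 23.3% rose and 20.9% fell, and 8.47% were higher and 3.31% lower past the threshold. Beside these shares the counts of so short a list are not a result about the list. *Gch1*, which makes the cofactor of nitric oxide synthase, measured 3.96, 2.97, 3.83 and 6.6 CPM with vehicle and 32.7, 31.2, 33.0 and 25.4 CPM with TNFα (2.73 ± 0.20, adjusted p = 2.79e-06). *Slc7a2*, which carries arginine into the cell, measured 210, 203, 194 and 346 CPM with vehicle and 1237, 1202, 1138 and 971 CPM with TNFα (2.19). The prostaglandin E synthase *Ptges* rose from 20, 22.7, 22.0 and 27.5 CPM to 89.1, 88.6, 97.3 and 72.2 CPM (1.85). *Ptgs2*, the inducible cyclooxygenase that supplies it, went the other way and fell from 12.8, 12.4, 12 and 12.6 CPM to 6.77, 5.65, 7.84 and 8.38 CPM (-0.85 ± 0.12, adjusted p = 6.01e-06), with no overlap between the treatments. *Hpgd*, which degrades prostaglandins, fell by 1.79 on the log2 scale.

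Of 15 innate receptors and their adaptors 10 rose and 1 fell, and 8 were higher past the threshold. *Tlr2*, a receptor for bacterial lipopeptides, measured 15.2, 14.0, 16.5 and 75.4 CPM with vehicle and 406, 463, 466 and 341 CPM with TNFα (3.71 ± 0.68, adjusted p = 0.00466), whereas the endotoxin receptor *Tlr4* did not pass the test (0.00, adjusted p = 0.989). Of 16 cell death genes 13 rose and 1 fell, and 11 were higher past the threshold. *Casp4*, the caspase of the noncanonical inflammasome, measured 0.75, 0.668, 0.83 and 7.76 CPM with vehicle and 38.1, 46.1, 47.9 and 29.7 CPM with TNFα (3.89), and *Casp1* 0.268, 0.371, 0.319 and 0.0579 CPM and 0.637, 1.27, 0.904 and 1.09 CPM (1.91 ± 0.46, adjusted p = 0.00148). The death receptor *Fas* rose by 2.81 and the necroptosis effector *Mlkl* by 2.32, whereas its kinase *Ripk3* fell by 0.48 on the log2 scale. Among 14 redox and zinc genes 9 rose and 2 fell, and 5 were higher past the threshold, with the mitochondrial superoxide dismutase *Sod2* (1.80) and the metallothionein *Mt2* (2.98) among them. *Hmox1* (0.39) and *Nqo1* (0.48), targets of the antioxidant factor NRF2, rose by less than 2-fold.

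Matrix-degrading enzymes divided. Of 22 metalloproteinases, aggrecanases and their inhibitors tested, 12 rose and 8 fell, and 8 were higher and 4 lower past the threshold. The shares over all genes were 23.3 and 20.9%, and past the threshold 8.47 and 3.31%. *Mmp3*, stromelysin 1, measured 14.4, 12.6, 12.6 and 61.1 CPM with vehicle and 366, 383, 385 and 269 CPM with TNFα (3.72 ± 0.65, adjusted p = 0.00363). The collagenase *Mmp13* measured 86.1, 82.1, 94.3 and 154 CPM with vehicle and 568, 613, 624 and 474 CPM with TNFα (2.39 ± 0.25, adjusted p = 0.000287). The gelatinase *Mmp9* measured 0.589, 0.297, 0.574 and 6.49 CPM with vehicle and 44.1, 47.0, 48.8 and 38.6 CPM with TNFα (4.36). These 3 enzymes were higher in every TNFα library than in any vehicle library. The aggrecanases were not alike, in that *Adamts4* rose from 8.03, 9.65, 9.32 and 13.2 CPM to 29.2, 26.2, 27.5 and 29.6 CPM (1.42) and *Adamts5* fell from 269, 297, 268 and 268 CPM to 196, 183, 176 and 202 CPM (-0.60, adjusted p = 2.51e-08). *Timp3*, the matrix-bound inhibitor of aggrecanases, fell from 9511, 9217, 9495 and 8242 CPM to 2455, 2414, 2391 and 3683 CPM (-1.79 ± 0.18, adjusted p = 0.000234), whereas *Timp1* rose by 0.17.

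Genes of the cartilage phenotype were lower. *Sox9*, the factor that specifies chondrocytes, measured 207, 211, 221 and 195 CPM with vehicle and 64.7, 77.5, 66.2 and 109 CPM with TNFα (-1.44 ± 0.19, adjusted p = 0.000937 with 8 libraries and -1.69 with 6). Of 20 cartilage collagens, proteoglycans and related matrix genes 15 fell and 2 rose, and 3 were lower past the threshold, with a median log2 fold change of -0.43. *Acan*, the proteoglycan that gives cartilage its resistance to load, measured 1693, 1657, 1539 and 1670 CPM with vehicle and 652, 600, 555 and 894 CPM with TNFα (-1.33 ± 0.17, adjusted p = 0.000943), and its link protein *Hapln1* 208, 196, 199 and 192 CPM and 86.0, 87.2, 82.6 and 116 CPM (-1.15). *Col2a1* measured 38082, 36859, 37576 and 34472 CPM with vehicle and 26399, 28060, 26647 and 30561 CPM with TNFα (-0.45 ± 0.06, adjusted p = 0.0012). TNFα replicate 4 was the least lowered library in each of these genes, and no TNFα library reached a vehicle library. *Comp*, a matrix glycoprotein, did not pass the test (-0.03, adjusted p = 0.492), and *Prg4*, which encodes the lubricant lubricin, rose from 385, 334, 347 and 451 CPM to 661, 595, 586 and 526 CPM (0.58, adjusted p = 0.00765).

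Of 12 chondrogenic transcription factors and related genes 8 fell and 2 rose, and 3 were lower past the threshold. *Sox6* (-0.42) and *Sox5* (-0.26, adjusted p = 0.0467), the partners of SOX9, fell by less than 2-fold, and *Barx1*, a joint homeobox factor, rose by 0.92. Of 15 genes of hypertrophy and mineralization 10 fell and 2 rose, 7 of them lower past the threshold, with a median of -0.92. *Sp7*, the osterix factor of bone formation, measured 11.2, 8.39, 9.64 and 7.99 CPM with vehicle and 1.99, 0.577, 0.844 and 3.02 CPM with TNFα (-2.58 ± 0.41, adjusted p = 0.00165). *Pth1r*, the receptor that restrains hypertrophy, measured 28.1, 27.1, 29.7 and 24.6 CPM with vehicle and 7.89, 5.83, 6.39 and 12.5 CPM with TNFα (-1.78), and *Runx2*, a driver of hypertrophy, fell by 1.21 on the log2 scale. *Col10a1*, the collagen of hypertrophic cartilage, measured 68.9, 64.7, 67.2 and 67.9 CPM with vehicle and 65.7, 79.1, 77.0 and 70.9 CPM with TNFα (0.06, adjusted p = 0.385), and these groups overlapped.

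Of 25 cartilage growth factors and receptors 15 fell and 6 rose, and 8 were lower and 2 higher past the threshold. *Fgfr3*, the receptor that limits the growth of cartilage, measured 339, 351, 349 and 277 CPM with vehicle and 50.7, 59.0, 60.8 and 115 CPM with TNFα (-2.25 ± 0.30, adjusted p = 0.00103). *Ccn2*, a matricellular growth factor of cartilage, measured 1936, 1985, 2073 and 1674 CPM with vehicle and 196, 209, 186 and 551 CPM with TNFα (-2.79 ± 0.44, adjusted p = 0.00225). In both genes each replicate 4 was the library of its group closest to the other group. *Bmp2* rose from 6.05, 4.68, 5.23 and 8.4 CPM to 31.9, 37.3, 36 and 28.2 CPM (2.37), whereas *Bmp4* fell by 1.68, the BMP antagonist *Nog* by 1.57 and *Tgfb3* by 1.46 on the log2 scale. *Gdf5*, a growth factor of the joint, rose by 0.73.

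**Figure D4:**
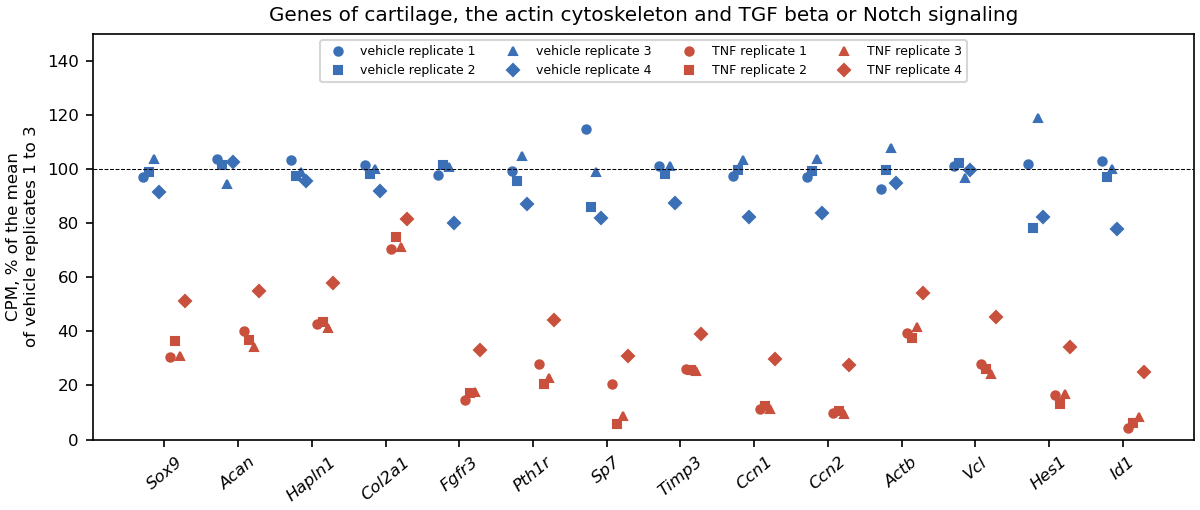
CPM of 14 genes of cartilage, the cytoskeleton and TGF beta or Notch signaling in each control library, as a percent of the mean of vehicle replicates 1 to 3 (dashed line at 100%). The shape of a point gives the replicate, with vehicle in blue and TNFα in red. TNFα replicate 4 (red diamonds) is the highest TNFα library for each gene, and no TNFα library reaches a vehicle library, *Col2a1* included.

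Of 15 Notch receptors, ligands and targets tested 4 rose and 2 fell, and 3 were higher and 1 lower past the threshold. With 23.3% of all genes rising and 20.9% falling, these counts are not a result about the list. *Notch2*, the gene that is mutated in the other genotype of the study, measured 125, 132, 103 and 147 CPM with vehicle and 190, 144, 133 and 169 CPM with TNFα (0.27 ± 0.17, adjusted p = 0.279). The groups overlapped for *Notch2*. The Notch target *Hes1* measured 16.7, 12.8, 19.5 and 13.5 CPM with vehicle and 2.71, 2.13, 2.77 and 5.62 CPM with TNFα (-2.26 ± 0.30, adjusted p = 0.000498), and *Hey1* 4.39, 5.27, 5.43 and 4.11 CPM and 2.79, 3.29, 2.29 and 2.24 CPM (-0.91, adjusted p = 0.00022). The targets *Hey2* (-1.41, adjusted p = 0.125) and *Heyl* (0.31, adjusted p = 0.732) were under 1 CPM in every library and did not pass the test. The ligand *Jag1* rose from 23.9, 26.4, 25.3 and 30.5 CPM to 70.7, 70.4, 67.6 and 66.6 CPM (1.32).

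Genes of the actin cytoskeleton and smooth muscle that serum response factor regulates all fell with 8 libraries, 9 of 15 by at least 2-fold, with a median log2 fold change of -1.11. With 6 libraries 14 of the 15 fell, and *Des*, the intermediate filament of muscle, did not pass the test (-0.44, compared to -0.71 with 8). *Vcl*, which encodes vinculin of the focal adhesions and overlaps *Ap3m1* on the opposite strand, measured 482, 488, 461 and 476 CPM with vehicle and 134, 124, 115 and 217 CPM with TNFα (-1.74 ± 0.23, adjusted p = 0.00105). *Actb*, cytoplasmic β-actin, measured 2742, 2946, 3193 and 2812 CPM with vehicle and 1167, 1114, 1234 and 1606 CPM with TNFα (-1.25 ± 0.14, adjusted p = 0.000411). *Srf*, the factor itself, fell from 74.9, 78.8, 75.9 and 68.7 CPM to 31.7, 27.9, 34.8 and 42.4 CPM (-1.17). Of 16 immediate early and serum response genes 6 rose and 7 fell, and 4 were higher and 4 lower past the threshold. Over all genes 23.3% rose and 20.9% fell, and past the threshold the shares were 8.47 and 3.31%. *Fos*, a subunit of AP-1, fell from 14.1, 13.1, 13.4 and 12.2 CPM to 3.51, 2.83, 3.8 and 4.42 CPM (-1.91), *Egr1* fell by 1.10 and the matricellular gene *Ccn1* by 2.60 on the log2 scale, and *Junb*, which overlaps *Prdx2* on the opposite strand, rose by 1.28. These genes are known to answer to serum, and a part of serum removal in their change cannot be told apart from TNFα by the labels.

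Of 18 cell cycle genes 15 fell and none rose, 1 of them past the threshold, with a median of -0.44. That gene, *Rrm2*, which encodes a subunit of ribonucleotide reductase, measured 229, 227, 224 and 207 CPM with vehicle and 87.5, 89.2, 81.7 and 116 CPM with TNFα (-1.30 ± 0.12, adjusted p = 5.85e-05). The proliferation marker *Mki67* did not pass the test (-0.30, adjusted p = 0.301). Of 18 sterol synthesis genes 9 fell and 1 rose and none passed the threshold, with a median of -0.19. Of 16 circadian clock genes 8 rose and 4 fell, and the clock output factor *Dbp*, which overlaps *Sphk2* on the opposite strand, was past the threshold (1.06) with 8 libraries and 4 genes were with 6. The shares of these lists that fell may be set against the 20.9% of all genes that did.

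The 10 largest rises among genes past the threshold in both analyses, with at least 5 CPM in the TNFα group and no overlap, were *Mx1*, *Madcam1*, *Heatr9*, *Or2v1*, *Gbp10*, *Tnfrsf9*, *Cxcl11*, *Spib*, *Ccrl2* and *Tnfsf10*. Their log2 fold changes with 8 libraries ran from 5.16 to 4.76 and depend on vehicle replicate 4, since vehicle replicates 1 to 3 had 0 counts in all but *Tnfrsf9* and *Ccrl2*. *Spib*, an ETS factor known from B and dendritic cells, was at 0 in vehicle replicates 1 to 3 and at 3.65 CPM in replicate 4, and measured 27.3, 30.3, 30.3 and 28.1 CPM with TNFα. TNFα replicates 1 to 3 were at least 153-fold above the limit of 3 counts per vehicle library for *Spib*, 271-fold for *Mx1* and 64.8-fold for *Tnfsf10*, the death ligand TRAIL. The olfactory receptor gene *Or2v1* overlaps *Ifi47* and *Tgtp2*, interferon-induced genes that rose as well, and its value is uncertain. In vehicle replicate 4 the 10 genes lay at 7.18 to 12.6% of the way to TNFα. Ranking by the fold change with 8 libraries favors genes that are low in vehicle replicate 4, so this low range follows in part from the choice.

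The 10 largest falls were *Id1*, *Arsi*, *Dio3*, *Ccn2*, *Kcns1*, *Npr3*, *Lmcd1*, *Rasgrp3*, *Apln* and *Ccn1*, with log2 fold changes from -3.09 to -2.60. *Id1*, an inhibitor of differentiation that BMP signals induce, measured 85.3, 80.5, 82.8 and 64.6 CPM with vehicle and 3.58, 5.08, 7.05 and 20.6 CPM with TNFα (-3.09 ± 0.50, adjusted p = 0.00262). *Npr3*, the clearance receptor of natriuretic peptides, measured 395, 419, 389 and 368 CPM with vehicle and 41.1, 38.6, 35.6 and 120 CPM with TNFα (-2.78), and *Dio3*, which inactivates thyroid hormone, 18.6, 20.3, 17.7 and 16.6 CPM and 2.23, 2.25, 0.904 and 4.99 CPM (-2.82). In each of the 3 genes TNFα replicate 4 was the least lowered.

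Motifs of the kind shown above were counted in the promoters of all tested genes. Among 12375 tested genes matched to a promoter by symbol, 12.6% held a κB match and 3.67% an interferon response match. Of 1102 matched genes higher past the threshold 18.8% held a κB match and 9.98% an interferon response match, and of 414 lower genes 13.0% and 2.42% did. A κB match was found in 10 of 14 promoters of the NF-κB subunits and inhibitors and an interferon response match in 8 of 9 promoters of the GBP and IRG genes. Among lists with a median log2 fold change of 0.04 or less, a κB match was found in 4 of 11 promoters of the actin and smooth muscle genes, 5 of 14 of the cartilage matrix genes, 5 of 14 of the Notch genes and 5 of 11 of the immediate early genes. In the other lists with such medians the share was smaller, from 6.67% for the cell cycle genes to 22.2% for the cartilage growth factors and receptors. These shares are descriptions and were not tested.

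Markers of other cell types were examined because RNA of immune cells could enter a bulk sample. Of 16 macrophage markers 14 were tested, 4 rose and 1 fell, and 1 was past the threshold, the scavenger receptor *Marco* (2.67). These counts may be read beside the 23.3% of all genes that rose and the 8.47% that were higher past the threshold. Their summed level was 70.4 to 77.7 CPM with vehicle and 86.7 to 101 CPM with TNFα, most of it *Lyz2*, and the pan-leukocyte marker *Ptprc* was between 0.191 and 1.51 CPM. The macrophage marker *Adgre1* rose from 3.64, 2.97, 3.26 and 2.38 CPM to 6.77, 7.15, 5.79 and 5.41 CPM (0.97, adjusted p = 4.49e-05), and *Fcer1g* (0.52, adjusted p = 0.107), *Vav1* (-0.02, adjusted p = 0.98) and *Rac2* (0.79, adjusted p = 0.0715), genes of the phagosome, did not pass the test. Markers of T and NK cells summed to no more than 0.312 CPM in any library, with *Cd3e*, *Cd3g*, *Cd8a* and *Nkg7* at 0 in all 8. Of the mast cell markers *Kit* alone exceeded 1 CPM. The summed level of 10 endothelial markers was 135 to 143 CPM with vehicle and 150 to 151 CPM with TNFα, most of it *Eng*. The 9 skeletal muscle markers summed to 19.8 to 25 CPM with vehicle and 7.17 to 17.5 CPM with TNFα, and the 6 osteoblast markers to 34.0 to 45.3 CPM and 15.4 to 23.5 CPM. The 7 osteoclast markers summed to 179 to 192 CPM with vehicle and 187 to 198 CPM with TNFα, nearly all of it *Ctsk*. This sum hides the others, since of the 5 tested 3 rose and none fell, and 2 were higher past the threshold. Fibroblast and perichondrium markers summed to 31303 to 33437 CPM and 31965 to 33785 CPM, and chondrocyte markers to 39931 to 43603 CPM and 29968 to 34816 CPM. Of the 9 fibroblast and perichondrium markers 5 rose and 1 fell, and 1 was higher past the threshold. All 9 chondrocyte markers fell, 3 of them past the threshold. The part of the other cell types in the results was not tested.

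The same treatment of the 8 *Notch2*tm1.1Ecan libraries was analysed alike. In these 2720 of 19633 genes were past the threshold, 1807 higher and 913 lower. Of the 2279 control calls 1760 were also past it in the same direction in the mutant cells, which is 77.2% of the control calls and 64.7% of the mutant calls, and none were past it in the opposite direction. *Icam1* had a log2 fold change of 6.07 and *Sox9* of -1.92 in the mutant cells, compared to 4.23 and -1.44 in control cells with 8 libraries and 6.16 and -1.69 with 6. The genotype by TNFα interaction, fitted to all 16 libraries, passed an adjusted p under 0.05 in 101 of 21321 genes (0.474%), 57 with a higher and 44 with a lower log2 fold change in mutant cells. The count was 51 without mutant TNFα replicate 3, 66 without mutant vehicle replicate 2 and 156 without mutant vehicle replicate 1, and DESeq2 called 206. None of the 5 markers of the response and none of the 10 largest rises and 10 largest falls was among them. Among the list genes it passed in 9. The osteoclast inhibitor *Tnfrsf11b* fell further in mutant cells (interaction -0.47, adjusted p = 0.00383), as did *Tgfb3* (-0.90, adjusted p = 0.0445), and the interaction of *Irak3*, an inhibitor of Toll-like receptor signaling, was 0.74 (adjusted p = 0.00966). This fit includes both control replicates 4. For *Tgfb3* they lay at 12% (vehicle) and 74.4% (TNFα) of the way to TNFα, which lessens its change in control cells. Without both control replicates 4 the interaction passed in 132 genes, and its values for single genes are not given here. With 3439726 counts on genes, mutant TNFα replicate 4 was the shallowest of the 16 libraries.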

How the data were processed

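RNA of 16 samples was sequenced as paired reads of 75 bases, and the 8 control libraries are described here. The deposited values are raw counts of fragments per gene, which the authors made with htseq-count 0.11.0 from HISAT2 alignments after trimming with Trimmomatic 0.39. The study's methods give HISAT2 2.2.1 and Ensembl release 105, whereas the submitters' processing notes give HISAT2 2.1.0 and GRCm38, so the build of the counts is uncertain. The strand setting of the counting is not given in the sources used here, and named genes that overlap another expressed protein-coding gene are less certain. The 5 lines that name no gene (9.69 to 11.2% of fragments in the control libraries) were left out, and 55414 gene identifiers were kept.

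Genes with at least 10 counts over the libraries of a fit were tested with edgeR 4.0.16 (R 4.3.3, limma 3.58.1), with TMM normalization, robust quasi-likelihood and Benjamini-Hochberg adjustment over all genes tested. Genes were past the threshold at an adjusted p below 0.05 with a log2 change of 1 or more in either direction. CPM values are counts divided by the library's total on genes and scaled by 1e6, without TMM. The limit for a library with no count was 3 counts, and counting error is all that such a limit covers. A fold against vehicle replicates 1 to 3 at 0 counts was taken against that limit. Scripts ran in python 3.11.15 with pandas 2.3.3, numpy 2.4.6 and matplotlib 3.10.9. Of the fits, the edgeR comparison of 2 groups alone was tested on simulated data, in which no library was set apart from its group. The members and gene lists were chosen with earlier results of these data known. Genes named were those of the lists and the 10 largest rises and falls past the threshold in both analyses, with at least 5 CPM in the higher group and no overlap. Among list members the examples were picked by role with their values in view. Alternatives were an adjusted p under 0.1, no fold cutoff, DESeq2 1.42.0, RLE normalization, filterByExpr, no filter beyond 1 count, a fit to all 16 libraries, a replicate block, 1 surrogate variable (sva 3.50.0), each library left out, and both replicates 4 left out, also with DESeq2. Same-numbered libraries of the 2 treatments had correlations of -0.02, -0.16, 0.09 and -0.24, so that no pairing by replicate number was seen. These values cannot exclude a pairing, because the shift of both replicates 4 toward the other treatment weighs on them. The values of 3 list members are not reported here.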

Additional observations from a re-analysis of the deposited data

Results flagged for a closer look

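In 80 groups of 4 libraries, which are the vehicle and TNFα groups of 40 named genes, a library was set apart where its gap to the nearest other library was too large a share of the group's range by Dixon's criterion, which chance meets in about 1 in 20 groups. It was met in 21, and in each the library was a replicate 4. These 21 groups cannot be set against that rate. The genes were named with results known, the groups share the same libraries, and the replicates 4 had been singled out beforehand. In 10 of the 21 (*Nos2*, *Mx1*, *Spib*, *Heatr9*, *Tnfsf10*, *Cxcl11*, *Or2v1*, *Gbp10*, *Madcam1* and *Il1b*) the other 3 libraries had no count, so that any count at all meets the criterion, and for *Il1b* it was 1 count.

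Vehicle replicate 4 stood apart with 427 CPM for *Icam1*, 225 CPM for *Cxcl10*, 63.5 CPM for *Nos2*, 50.5 CPM for *Gbp5*, 4.81 CPM for *Mx1*, 3.65 CPM for *Spib*, 1.74 CPM for *Heatr9* and 1.56 CPM for *Tnfsf10*. It did so at low levels with 1.22 CPM for *Ccrl2*, 1.1 CPM for *Cxcl11*, 0.753 CPM for *Or2v1*, 0.579 CPM for *Gbp10*, 0.521 CPM for *Madcam1* and 0.0579 CPM for *Il1b*. Among genes that fell it stood apart with 277 CPM for *Fgfr3* and 142 CPM for *Arsi*. TNFα replicate 4 stood apart with 115 CPM for *Fgfr3*, 45.2 CPM for *Arsi*, 551 CPM for *Ccn2*, 120 CPM for *Npr3* and 289 CPM for *Ccn1*.

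Over 11221 genes with at least 5 CPM, vehicle replicate 4 was set apart in 593 genes and TNFα replicate 4 in 283, compared to 85 to 116 for each of the other 6 libraries.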

How the results depend on the processing

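The number of genes past the threshold in control cells was 2279 (1638 higher and 641 lower) and was 8542 (4505 and 4037) with no fold cutoff. It ranged from 2038 to 2399 as single libraries were left out and was 2509 without both replicates 4, with 1462 to 1754 higher and 569 to 755 lower over all of these. With a replicate block 2081 genes were past it (1483 and 598), and 26 of 274 named genes lost the call under the block. Whether the numbers pair the samples is not known. The interaction passed in 101 genes (57 higher and 44 lower in mutant cells), in 206 (127 and 79) with DESeq2, in 87 with a replicate block and in 132 without both control replicates 4. Leaving out 1 library gave 51 to 156 genes, with 29 to 81 higher and 22 to 75 lower. *Heyl*, with no call, (0.31) turned to -0.21 without TNFα replicate 2 and was 0.59 without both replicates 4, and *Vav1*, with no call (-0.02, and -0.44 without both replicates 4), to 0.24 without vehicle replicate 2, 0.31 without TNFα replicate 1 and 0.15 without TNFα replicate 3. DESeq2 kept the direction and call of 268 of the named genes. *Cxcl10* (adjusted p = 0.0167) and *Ccl5* (0.0252) were called by DESeq2 with 8 libraries and *Nos2* (0.193) and *Gbp5* (0.113) were not. The cause of these differences was not tested. Genes under 1 CPM, such as *Il6* and *Il1b*, rest on few counts, and depth limits what can be said of them.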
